A study of Mus musculus with 6 samples.

Results

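The genes described are the heat shock proteins and their cochaperones, taken by gene symbol as every Hspa, Hspb, Hspd, Hspe, Hsph, Hsp90, Dnaja, Dnajb, Dnajc and Bag1 to Bag6 row that is not a pseudogene. This gave 78 of the 48401 genes in the files, of which 71 passed the filter for testing, a mean of at least 1 TPM over the libraries (TPM is abundance scaled to gene length and to a fixed library total), as did 19141 genes in all. The data are bulk RNA-seq of L4/5 ganglia from male C57BL/6J mice aged 8 weeks. All mice had been given siRNA intrathecally, that is into the cerebrospinal fluid. In 3 libraries the siRNA was siNC, taken here as the control, and in 3 it was siCLAP, named for CLAP, a long intergenic noncoding RNA studied for itch. No source used here states when ganglia were taken or whether a library holds 1 mouse or a pool, so p-values measure the spread between these libraries, which may be technical. The level of CLAP was not analysed here. Values listed per library are in the order of replicates 1, 2 and 3, siNC first.

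Heat shock proteins are chaperones, which bind unfolded or partly folded proteins and keep them from aggregating. HSP70 proteins do so in cycles of ATP hydrolysis that J domain proteins (the DNAJ families) start and that exchange factors (the HSP110 and BAG families) reset, and HSP90 takes up partly folded clients such as kinases and steroid receptors. Small heat shock proteins hold unfolded protein without ATP, and the chaperonin Hspd1 with its lid Hspe1 folds protein inside mitochondria. The inducible members are switched on by the transcription factor HSF1, which binds heat shock elements in their promoters, while the members of the endoplasmic reticulum are switched on by the unfolded protein response. In the dorsal root ganglion (DRG), where the cell bodies of sensory neurons lie beside the spinal cord, the small heat shock protein Hspb1 is known as a gene that injured neurons express strongly.

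Total counts were between 21386768 and 46317735 per library. The summed level of 10 sensory neuron markers was 16584 to 17540 TPM in siNC and 17218 to 18050 TPM in siCLAP, with none at 0, which fits the tissue label. Other lists stood apart between libraries. The summed level of 8 leptomeningeal genes (from the membranes around the cord and roots) was 116, 28.9 and 137 TPM in the siNC libraries and 25.5, 16.2 and 11.4 TPM in the siCLAP libraries. A large part of this sum was 1 gene, Ptgds, at 90.3, 19.3 and 91.7 TPM against 13.5, 6.67 and 3.63 TPM. The summed level of 7 genes of myelinating Schwann cells was 4367, 3280 and 3822 TPM against 3396, 3574 and 3266 TPM. Single markers passed edgeR's test, with the Schwann cell gene Egr2 (16.7 against 9.80 TPM, adjusted p = 0.0389) and the neuronal sodium channel gene Scn10a (698 against 542 TPM, adjusted p = 0.0363) lower in siCLAP and the satellite glia gene Ednrb (58.2 against 78.7 TPM, adjusted p = 0.0317) higher. The summed level of 8 interferon-response genes was 436, 447 and 689 TPM against 437, 744 and 447 TPM, highest in siNC-3 and siCLAP-2.

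Hspa1b and Hspa1a, the paired inducible HSP70 genes, open the results, so their promoters are shown first. They lie on chromosome 17 of mm10, on the minus strand, Hspa1b at 34956436 to 34959238 and Hspa1a at 34969190 to 34972156, each protein-coding with a single exon. Hspa1l, a related HSP70 gene mainly of the testis, starts 547 bases from Hspa1a in the opposite direction. The 250 bases before each start, from RefSeq's GRCm38.p6 entries, are given 5′ to 3′, with the match to a 2-unit heat shock element in capitals. The element was searched as GAANNTTC or TTCNNGAA on both strands.
Hspa1b, chr17:34959239-34959488, minus strand: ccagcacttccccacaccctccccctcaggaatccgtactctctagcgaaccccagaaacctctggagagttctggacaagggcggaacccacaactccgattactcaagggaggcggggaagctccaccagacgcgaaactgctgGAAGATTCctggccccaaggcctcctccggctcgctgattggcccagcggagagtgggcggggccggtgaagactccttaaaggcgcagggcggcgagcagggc
Hspa1a, chr17:34972157-34972406, minus strand: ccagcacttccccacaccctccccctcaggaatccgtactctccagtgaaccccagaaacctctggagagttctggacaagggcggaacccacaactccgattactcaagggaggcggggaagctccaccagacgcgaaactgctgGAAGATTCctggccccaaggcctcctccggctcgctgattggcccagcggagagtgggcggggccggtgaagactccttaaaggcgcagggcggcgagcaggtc
The pair carried the same base at 247 of the 250 positions, with the element starting 104 bases before the start in both. Their coding sequences were identical at 99.4% of 1926 aligned positions, and 62.3% of all 50-base windows of the Hspa1b transcript also occur in that of Hspa1a. Reads from the pair can therefore be split between them by the authors' counting, and values for either gene alone are uncertain.

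Hspa1b fell in the siCLAP libraries and was the only member that passed edgeR's quasi-likelihood test. Its level was 30.2, 18.3 and 31.1 TPM under siNC, and 13.0, 11.1 and 11.1 TPM under siCLAP. The groups did not overlap, and the spread was mainly within siNC, where siNC-2 lay well below the other siNC libraries. These levels rest on 313 to 1136 counts per library. Means were 26.5 ± 7.15 and 11.7 ± 1.09 TPM (SD, n = 3 libraries each), a 2.20-fold fall (log2 fold change −1.14 ± 0.17 SE, adjusted p = 0.0282 in edgeR's test). Hspa1a stood at 5.84, 5.32 and 8.03 TPM against 5.83, 3.69 and 4.30 TPM, with overlapping groups, and did not pass (−0.42 ± 0.19, adjusted p = 0.285). Its estimate was −0.25 without siNC-3, −0.64 without siCLAP-1 and −0.12 without siNC-3 and siCLAP-2.

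Because of the shared sequence, both genes were also added together. The sum was 36.0, 23.6 and 39.2 TPM in siNC and 18.8, 14.8 and 15.4 TPM in siCLAP, 1.95-fold lower (log2 fold change −0.97 ± 0.16, adjusted p = 0.0388 in edgeR's test). The call on the sum was lost without siNC-1 (adjusted p = 0.0977), siNC-3 (0.160), siCLAP-1 (0.134) or siCLAP-2 (0.0798). With the pair kept apart, fewer genes in all were called without these libraries, as given below. The ratio of Hspa1b to Hspa1a was 5.17, 3.44 and 3.88 in siNC against 2.23, 3.0 and 2.58 in siCLAP. These ratios did not overlap, with an exact two-sided permutation p of 0.1, the smallest that 3 against 3 libraries can give. The remaining genes of this group were Hspa2, an HSP70 of meiotic cells that is also found in other tissues, at 28.4 ± 0.548 against 26.9 ± 0.677 TPM, and Hspa1l at 3.14 ± 0.334 against 3.26 ± 0.660 TPM. Of the exon bases of Hspa1l 71.9% also belong to the antisense gene Gm10501, whose reads an unstranded kit cannot tell from its own.

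The Hspa1b call was lost in several fits that left out 1 library, while its estimate stayed negative. Its adjusted p in edgeR's test was 0.0681 without siNC-1, 0.105 without siNC-3, 0.132 without siCLAP-1 and 0.0586 without siCLAP-2. Over all tested genes these fits called 39, 4, 0 and 43 genes in that order, against 56 with all libraries. The log2 fold changes of Hspa1b ran from −1.35 to −1.02 over the 6 libraries left out in turn. In limma on log2(TPM + 0.5) its adjusted p was 0.157. The siNC libraries with the highest Hspa1b, siNC-1 and siNC-3, were also the highest in the leptomeningeal and myelinating Schwann cell lists above. Of the leptomeningeal genes only Slc22a6 was at 0 in any library, siCLAP-3. In siNC-2 and siCLAP-1, whose leptomeningeal sums were close (28.9 and 25.5 TPM), Hspa1b stood at 18.3 and 13.0 TPM. The part of these cells in the result was not tested, and in bulk tissue fewer cells of a type and less RNA per cell cannot be told apart.

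**Figure D1:**
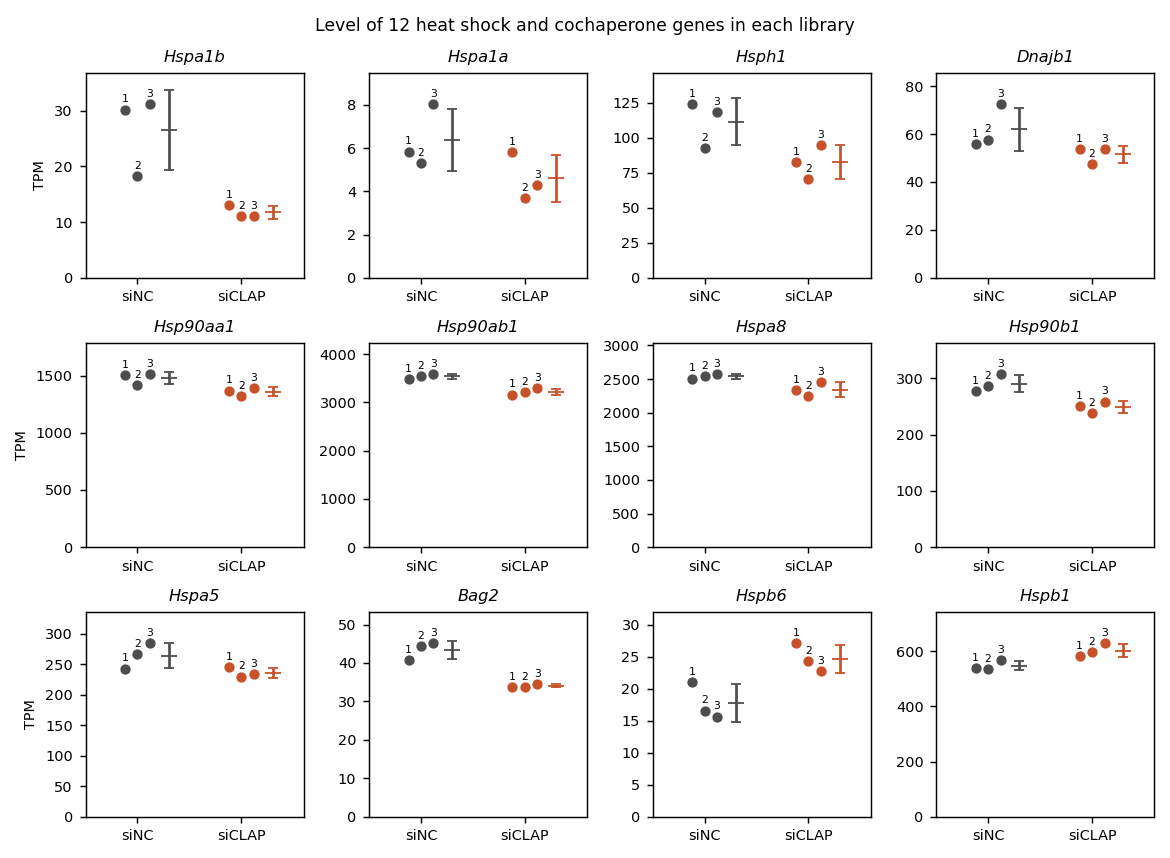
Level in TPM (vertical axes, from 0) of 12 heat shock and cochaperone genes in each siNC and siCLAP library. Points are single libraries with their replicate number, and the mark beside them is the mean with its SD (n = 3). Hspa1b runs from 18.3 TPM or more in siNC to 13.0 TPM or less in siCLAP, while Hspb6 and Hspb1 lie higher in siCLAP.

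The members as a whole were abundant. Together they made up 1.33%, 1.33% and 1.35% of all TPM under siNC and 1.26%, 1.24% and 1.29% under siCLAP, so every siCLAP library lay below every siNC library. The 5 most abundant members (Hsp90ab1, Hspa8, Hsp90aa1, Hspb1 and Hspb8) held 62.6% to 64.1% of that total. Their summed mean was 8530 TPM in siNC and 7961 TPM in siCLAP, beside 13341 and 12635 TPM for all members. The small heat shock sum instead lay higher in every siCLAP library than in any siNC library, at means of 1094 and 1013 TPM. The J domain sums were nearly level and barely apart, with the highest siNC value at 2069.99 TPM and the lowest siCLAP value at 2070.57 TPM. By mean TPM over all libraries 3 members were at 1000 or more, 20 at 100 or more and 61 at 10 or more. Hspa1b and Hspa1a, the textbook inducible genes, were low beside their constitutive relative Hspa8, which stood at 2542 ± 35.5 TPM in siNC.

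**Figure D2:**
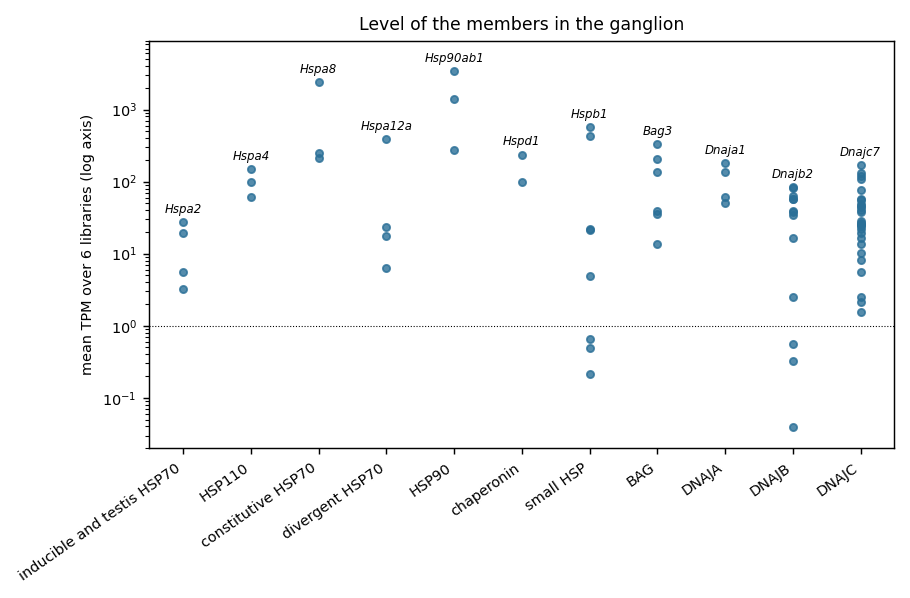
Mean TPM over the 6 libraries (vertical log axis) of each member, in columns by chaperone group, with the most abundant gene of each column named. The dotted line marks 1 TPM, the filter for testing, and Dnajc5g is not drawn because it is at 0. Hsp90ab1 and Hspa8 are the highest points, and 6 drawn members lie below the line.

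Over the 71 tested members, 1 fell (Hspa1b), 0 rose and 70 did not pass. Over all tested genes edgeR called 0.293%, of which 0.219% lower and 0.0731% higher. At an unadjusted p under 0.05, 15 members were lower (21.1%) and 7 higher (9.86%), where the shares over all tested genes were 8.75% and 8.22%. All tested genes also hold many genes of lower counts, and the shares were not matched for level or spread. The difference in shares is therefore not shown to be a trait of the members. In TPM, 19 members (26.8%) lay lower in every siCLAP library than in any siNC library and 9 (12.7%) lay higher, beside 12.2% and 9.39% of all genes tested. The share with an estimate below 0 was 45.1%, against 50.5% of all genes, and the median log2 fold change was 0.01 against 0.00 for all. The 22 members at an unadjusted p under 0.05 (31.0% of members, where 17.0% of all genes did so in either direction) became 11 without siNC-3 (15.5%, against 11.2% of all genes), 13 without siCLAP-2 (18.3%, against 12.7%) and 9 without both (12.7%, against 8.11%). DESeq2 called Hspa1b, Bag2, Hsp90b1 (lower) and Hspb6 (higher), 4 of the 65 members to which it gave an adjusted p, where it called 4.38% of all genes, 2.68% lower and 1.71% higher.

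The HSP90 genes, all 3 of them, lay lower in siCLAP by small amounts. Hsp90ab1, the constitutive cytosolic HSP90 and the most abundant member, was at 3488, 3547 and 3589 TPM in siNC and 3160, 3207 and 3288 TPM in siCLAP. Hsp90aa1, its inducible partner, was at 1504, 1417 and 1514 TPM against 1368, 1318 and 1391 TPM. Hsp90b1, the HSP90 of the endoplasmic reticulum (GRP94), was at 278, 287 and 308 TPM against 251, 238 and 259 TPM. None of the ranges overlapped, yet none passed edgeR's test. The log2 fold changes were −0.12 ± 0.04, −0.10 ± 0.04 and −0.20 ± 0.05 (adjusted p = 0.159, 0.236 and 0.0966), and DESeq2 called Hsp90b1 (adjusted p = 0.0105). The summed HSP90 level was 5311 ± 86.9 TPM in siNC and 4827 ± 96.2 TPM in siCLAP, a mean difference of −9.11%.

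Of the constitutive HSP70 genes, Hspa8 (HSC70, the main HSP70 of unstressed cells) stood at 2504, 2545 and 2575 TPM against 2332, 2241 and 2456 TPM, with no overlap (−0.10 ± 0.04, adjusted p = 0.280). Hspa5 (BiP), the HSP70 of the endoplasmic reticulum, stood at 243, 266 and 284 TPM against 245, 230 and 233 TPM (−0.15 ± 0.06, adjusted p = 0.254). Hspa9, the mitochondrial HSP70, was level at 211 ± 7.73 and 211 ± 3.64 TPM (0.01 ± 0.04, interval −0.08 to 0.10 at 2 SE). Of the divergent HSP70 genes Hspa12a, which is abundant in brain and nerve tissue, stood at 395 ± 14.8 and 376 ± 16.3 TPM. Hspa12b, a gene of endothelial cells, was lower in every siCLAP library at 25.6 ± 1.01 and 21.9 ± 1.14 TPM (−0.21 ± 0.06, adjusted p = 0.122). Of 6 endothelial markers Cdh5 and Tie1 were likewise lower without overlap and Cldn5 higher. None passed edgeR's test and DESeq2 called Cdh5 lower (adjusted p = 0.0325), while their summed level ran from 67.3 to 77.6 TPM in siNC and from 69.0 to 70.2 TPM in siCLAP. The part of these cells in the Hspa12b values was not tested. Hspa13 (0.16 ± 0.07) and Hspa14 (−0.04 ± 0.08) did not pass.

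Among the HSP110 genes, the exchange factors that release ADP from HSP70, Hsph1 (HSP105, heat-inducible) was at 124, 92.8 and 118 TPM in siNC and 82.7, 70.7 and 94.8 TPM in siCLAP. The groups overlapped, because siNC-2 lay below siCLAP-3, and as for Hspa1b the highest values were in siNC-1 and siNC-3. The log2 fold change was −0.41 ± 0.11 (adjusted p = 0.106). It passed without siNC-2 (−0.52, adjusted p = 0.0418) and without siCLAP-3 (−0.52, adjusted p = 0.0492), but not without siNC-1 (−0.33, 0.274), siNC-3 (−0.38, 0.326), siCLAP-1 (−0.42, 0.383) or siCLAP-2 (−0.31, 0.240). Without siNC-3 and siCLAP-2 together it stood at −0.27 (adjusted p = 0.554). Hspa4l stood at 64.0 ± 2.88 against 56.9 ± 2.87 TPM (−0.15 ± 0.05, adjusted p = 0.168) and Hspa4, the constitutive HSP110, at 152 ± 1.51 against 147 ± 3.69 TPM (−0.03 ± 0.04).

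The chaperonin genes Hspd1 (HSP60) and Hspe1 (HSP10) share one promoter region on chromosome 1 and point away from each other. They were at 246 ± 9.49 against 229 ± 5.36 TPM and at 103 ± 2.50 against 95.9 ± 8.50 TPM, with log2 fold changes of −0.08 ± 0.04 and −0.09 ± 0.07 that did not pass.

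Among the small heat shock proteins Hspb1 and Hspb6 lay higher in siCLAP. Hspb1 (HSP27) was at 540, 536 and 568 TPM in siNC and 583, 596 and 628 TPM in siCLAP, without overlap (0.15 ± 0.04, adjusted p = 0.129). Hspb6 (HSP20), known from muscle, was at 21.1, 16.6 and 15.7 TPM against 27.1, 24.3 and 22.7 TPM, also without overlap (0.49 ± 0.12, adjusted p = 0.0885). Neither passed edgeR's test, and DESeq2 called Hspb6 (adjusted p = 0.0135). The summed level of 10 skeletal muscle markers was 3.80 to 5.52 TPM in siNC and 3.35 to 9.97 TPM in siCLAP, and that of 8 smooth muscle and pericyte markers 147 to 158 and 125 to 151 TPM. No gene of either list passed, and their part in the Hspb6 values was not tested. Hspb8, a partner of Bag3 in autophagy of damaged protein, stood at 421 ± 18.8 against 438 ± 16.8 TPM. Hspb11, a protein of cilia, was at 20.4 ± 2.81 against 22.9 ± 3.0 TPM. Hspb2, at 4.99 ± 1.11 against 4.67 ± 1.12 TPM, shares 30.2% of its exon bases with Cryab on the opposite strand. Without strand information the reads of both genes cannot be told apart there, and no source used here states the strand setting.

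Of the BAG genes, which code for HSP70 exchange factors, Bag2 had the smallest p. It was at 40.8, 44.4 and 45.1 TPM in siNC and 33.8, 33.8 and 34.5 TPM in siCLAP, with siCLAP values within 1 TPM of each other. The 1.26-fold difference (−0.34 ± 0.06) just missed edgeR's threshold (adjusted p = 0.0560) and passed in DESeq2 (adjusted p = 0.00455). Bag1 pointed the other way, at 194 ± 3.59 against 217 ± 14.9 TPM (0.17 ± 0.06, adjusted p = 0.158). Bag3, an HSF1 target, was level at 328 ± 4.40 and 328 ± 14.3 TPM (0.01 ± 0.04, interval −0.07 to 0.10), which sets its values apart from those of Hspa1b, although the difference between the genes was not tested. Bag6, which guards membrane proteins in the cytosol, stood at −0.06 ± 0.04, and Bag4 and Bag5 at 0.08 ± 0.08 and 0.06 ± 0.06.

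**Figure D3:**
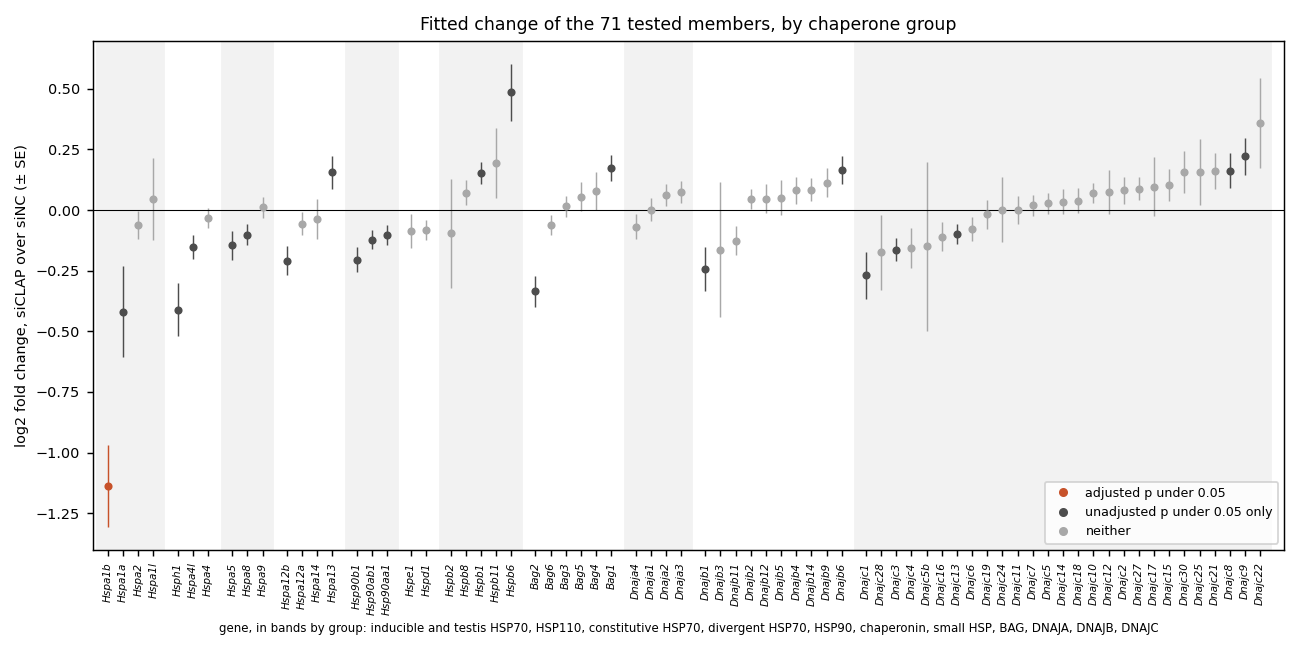
Fitted log2 fold change of siCLAP over siNC (vertical axis, bars are ± SE) for the 71 tested members, one point per gene, in shaded or white bands by chaperone group and ordered by value within each band. Hspa1b, at −1.14, is the only point that passed at an adjusted p under 0.05, and the points of the HSP90, HSP110 and chaperonin bands all lie below 0.

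The J domain proteins, 45 genes of which 41 were tested, made up the largest family, and none passed edgeR's test. At an unadjusted p under 0.05, 4 were lower (9.76%) and 3 higher (7.32%), near the 8.75% and 8.22% of all genes, and the summed level was 2061 ± 10.1 TPM in siNC and 2082 ± 15.4 TPM in siCLAP. Dnajb1 (HSP40), the inducible partner of HSP70, was at 55.9, 57.7 and 72.4 TPM against 53.5, 47.3 and 53.6 TPM. Its siNC-3 value stood above all the others, and the groups did not overlap (−0.24 ± 0.09, adjusted p = 0.211). Without siNC-3 its estimate was −0.13, and without siNC-3 and siCLAP-2 together it was −0.07.

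Dnaja1, the most abundant DNAJA and another HSF1 target, was level at 182 ± 8.97 and 181 ± 1.71 TPM (0.00 ± 0.05, interval −0.09 to 0.10). Dnaja2, Dnaja3 (of mitochondria) and Dnaja4 stood at 0.06 ± 0.05, 0.08 ± 0.04 and −0.07 ± 0.05, and 44.1% of the exon bases of Dnaja4 overlap Wdr61 on the opposite strand. In the DNAJB family Dnajb6, a suppressor of protein aggregation, was at 78.2 ± 3.58 against 86.8 ± 5.04 TPM (0.16 ± 0.06, adjusted p = 0.191), and Dnajb2, a neuronal member, at 83.6 ± 1.17 against 85.5 ± 1.6 TPM.

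In the DNAJC family, which lends the J domain to many separate tasks, the most abundant genes did not pass. Dnajc7, a cochaperone of HSP90 and HSP70, stood at 167 ± 3.97 and 168 ± 0.552 TPM. Dnajc5 (cysteine string protein, a chaperone of synaptic vesicles) stood at 117 ± 3.32 and 118 ± 2.72 TPM (0.03 ± 0.04, interval −0.06 to 0.11). Dnajc8, a nuclear protein, stood at 126 ± 12.6 against 140 ± 6.27 TPM (0.16 ± 0.07, and 0.08 without siNC-3). The members with the smallest p were Dnajc3, Dnajc9, Dnajc1 and Dnajc13. Dnajc9, a histone chaperone, was higher without overlap at 24.5 ± 1.5 against 28.3 ± 1.52 TPM (0.22 ± 0.08, adjusted p = 0.189), and Dnajc13, of endosomes, was lower at 58.1 ± 2.09 against 53.6 ± 0.844 TPM (−0.10 ± 0.04, adjusted p = 0.263).

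Members of the endoplasmic reticulum had estimates on both sides of 0, and they are grouped here after their values were seen. Dnajc3 (P58IPK) was at 46.1, 44.6 and 49.2 TPM against 40.7, 42.0 and 40.6 TPM (−0.16 ± 0.05, adjusted p = 0.128). Dnajb11 (ERdj3) was at 34.1, 35.2 and 37.5 TPM against 32.1, 30.9 and 33.4 TPM (−0.13 ± 0.06, adjusted p = 0.311), and Dnajc1 (ERdj1) at 8.89 ± 0.636 against 7.25 ± 0.946 TPM (−0.27 ± 0.10, adjusted p = 0.204). Others of the same compartment pointed up, with Dnajb9 (ERdj4) at 0.11 ± 0.06, Dnajc10 (ERdj5) at 0.07 ± 0.04 and Hspa13 as above. None of these passed edgeR's test, and of the endoplasmic reticulum members DESeq2 called Hsp90b1, as given above.

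**Figure D4:**
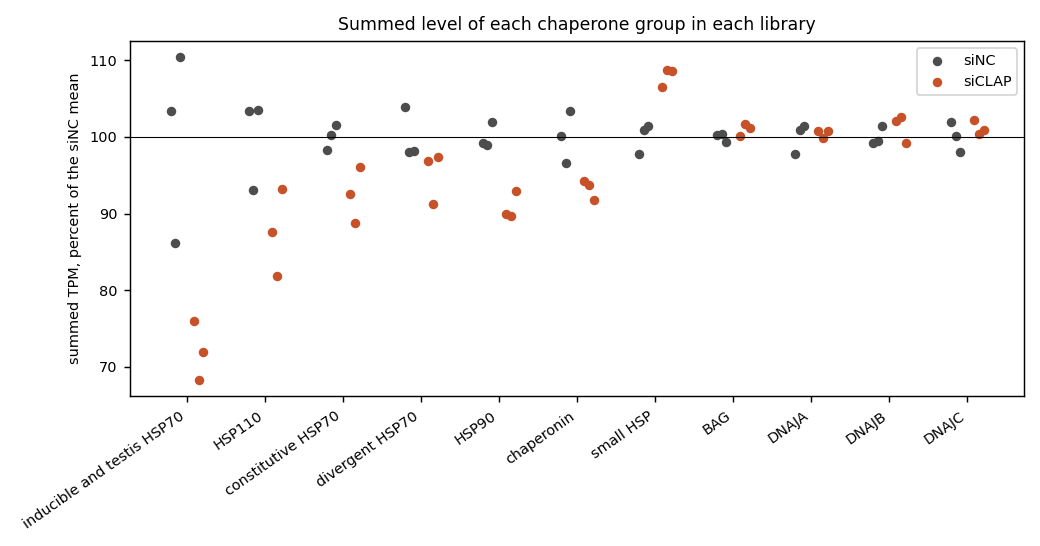
Summed TPM of each chaperone group in each library, as a percent of the siNC mean of that group (vertical axis, which does not start at 0), with one point per library. The HSP90 points of siCLAP lie below all siNC points, those of the small heat shock proteins above, and those of the BAG, DNAJA, DNAJB and DNAJC groups among them.

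The promoters of the members differ in the elements they hold. RefSeq's promoter table held 63 of the 78 members. Hsp90aa1, Hsp90ab1 and Hspa8 were among those without an entry, so their promoters were not searched. A 2-unit heat shock element was found in the 250 bases before the start of 14 of them (22.2%) and of 14.5% of 27025 genes in that table. A 3-unit element (the 2-unit one followed, after 2 free bases, by 1 more alternating GAA or TTC) was found in Hspd1, Hspe1 and Dnajb6 and in 0.514% of all genes. The searched stretches of Hspd1 and Hspe1 overlap on opposite strands, so matches they share were counted for both genes. The endoplasmic reticulum stress element, searched on both strands as CCAAT, 9 free bases and CCACG, was found in Hspa5, Hsp90b1 and Dnajc3 and in 0.13% of all genes. Stretches around the matches are printed for some of the members with a match, with the match in capitals.
Hsph1, chr5:149636352-149636379, minus strand: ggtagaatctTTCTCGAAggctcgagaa
Hspb1, chr5:135887792-135887839, plus strand: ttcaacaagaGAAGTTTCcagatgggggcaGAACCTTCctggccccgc
Hspe1, chr1:55088051-55088079, plus strand: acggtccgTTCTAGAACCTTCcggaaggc
Hspa5, chr2:34772020-34772048, plus strand: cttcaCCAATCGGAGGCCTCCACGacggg
Hsp90b1, chr10:86705523-86705666, minus strand: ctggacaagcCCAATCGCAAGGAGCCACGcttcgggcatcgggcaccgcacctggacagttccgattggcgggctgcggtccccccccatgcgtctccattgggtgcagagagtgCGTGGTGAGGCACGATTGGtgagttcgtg
Dnajc3, chr14:118937817-118937855, plus strand: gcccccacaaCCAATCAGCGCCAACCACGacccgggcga
The Hsph1, Hspb1 and Hspe1 stretches show heat shock elements (for Hspe1 the first of its 3-unit matches) and the others show stress elements. Members with a 2-unit heat shock element did not share a direction, as Hspa1b fell, Hspb1 and Hspb6 lay higher without passing and Dnaja1 was level. Dnaja1 and Hspb6 held the element before only 1 of their listed starts. The 3 with a stress element all had negative estimates, as did 50.5% of all tested genes, and none of the 3 passed edgeR's test. A link between element and direction was not tested. A match is a stretch of letters and was not tested as a binding site.

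The rest of the chaperone network was followed in lists of genes that are not members. Of 55 tested genes of these lists 1 fell (1.82%), 0 rose and 54 did not pass, where edgeR called 0.219% of all tested genes lower and 0.0731% higher. At an unadjusted p under 0.05, 7 were lower and 7 higher (12.7% each), beside 8.75% and 8.22% of all tested genes. The one that fell was Fkbp5, an HSP90 cochaperone of steroid receptors and a gene known to be induced by glucocorticoids, at 34.3, 41.6 and 41.9 TPM in siNC and 27.6, 26.6 and 29.6 TPM in siCLAP (−0.48 ± 0.08, adjusted p = 0.0439). The groups did not overlap, and unlike Hspa1b its lowest siNC value was in siNC-1. The call ended without siNC-2 (adjusted p = 0.0564), siNC-3 (0.195), siCLAP-1 (0.223) or siCLAP-2 (0.0811). Over all tested genes the fit without siNC-2 called 157, and the others called fewer than the main fit, as given for Hspa1b. The other 18 of 19 tested HSP90 and HSP70 cochaperones did not pass, such as Stip1 (HOP, the bridge between HSP70 and HSP90) at −0.12 ± 0.05 and Stub1 (CHIP, a ubiquitin ligase that removes HSP70 clients) at 0.11 ± 0.04.

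Hsf1, the main heat shock factor, was at 48.4 ± 0.901 against 44.2 ± 2.46 TPM, lower in every siCLAP library without passing (−0.12 ± 0.06, adjusted p = 0.341), and none of the 7 tested heat shock factors and their regulators passed, with Hsbp1l1 at 0.21 ± 0.07. Cryab, a small heat shock protein named as a crystallin and abundant in glia, was at 175, 150 and 180 TPM against 151, 139 and 144 TPM (−0.20 ± 0.06, adjusted p = 0.160), again highest in siNC-1 and siNC-3. In the list of 12 endoplasmic reticulum stress genes 0 passed and the median was −0.10. At an unadjusted p under 0.05, 3 were lower (25%) and 1 higher (8.33%), beside 8.75% and 8.22% of all tested genes. Calr, a calcium-binding chaperone, stood at −0.13 ± 0.05, Pdia6 at −0.18 ± 0.07 and Atf4 at 0.18 ± 0.08 (0.09 without siNC-1). All 8 genes of the CCT chaperonin, which folds actin and tubulin, stayed between −0.04 and 0.08 with 0 at an unadjusted p under 0.05. Of 8 other organelle chaperones and exchange factors 0 passed, with Clpb at −0.21 ± 0.06, Clpx at 0.16 ± 0.06 and Grpel1 at 0.15 ± 0.06.

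A list of 19 HSF1 target genes, members and others together, was read in the same way. In it 1 fell (Hspa1b), 0 rose and 18 did not pass; the median log2 fold change was −0.10. At an unadjusted p under 0.05, 10 were lower (52.6%) and 1 higher (5.26%), beside 8.75% and 8.22% of all tested genes. The 1 higher was Hspb1. The list was written with earlier results of these data known, so its count is not independent evidence of a direction.

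The members varied little between libraries of one group. Their median coefficient of variation in TPM, the mean of both groups, was 4.37%, against 7.15% over all tested genes, which also hold many genes of lower counts. That of Hspa1b was 18.1% and that of Hsph1 14.7%. Of the 71 tested members 27 had their lowest normalised level in siCLAP-2 and 19 in siNC-3, and the same libraries held the highest level of 16 and 14 members. These libraries also had the lowest total counts, 25982046 in siCLAP-2 and 21386768 in siNC-3. The tally was not made over all tested genes, so it does not show a trait particular to the members.

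The 7 members below the filter were Dnajb7, Dnajb8, Dnajb13, Dnajc5g, Hspb3, Hspb7 and Hspb9, each at or below 1.19 TPM in every library. Dnajc5g had 0 counts in all 6 libraries, which allows a level of up to 0.0648 CPM (the count scaled to library size) in the deepest and 0.140 CPM in the shallowest, counting error only. Dnajb8 had 0 counts in all siNC libraries and 2, 1 and 0 in the siCLAP libraries. No change can be read for these genes at these depths.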

How the data were processed

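RNA of L4/5 ganglia was extracted with Trizol and made into libraries with a NEBNext Ultra kit, per the labels' protocols. The submitters' processing notes name FastQC 0.11.8, HISAT2 2.1.0, featureCounts 1.6.2 and mm10. No source used here states the annotation, the strand setting or how reads mapping to several places were treated. The authors deposited, per library, TPM and an expected count for each gene, and 66.5% of the counts were whole numbers (within 1e-06).

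Counts were rounded, genes with a mean of at least 1 TPM were kept, and siCLAP was compared with siNC by edgeR 4.0.16 (TMM scaling, quasi-likelihood test, R 4.3.3) with Benjamini-Hochberg adjustment over all 19141 tested genes and a threshold of 0.05. Intervals are 2 SE. DESeq2 1.42.0 and limma 3.58.1 (limma on log2(TPM + 0.5)) were alternatives, and DESeq2 gave 6 tested members no adjusted p. On data simulated for this comparison with all 19141 genes, 36%, 84%, 100% and 100% of 50 genes each were recovered at 1.25-, 1.5-, 2- and 3-fold. Of 18941 unchanged genes 19 were called. They were 19 of 179 calls in all, a larger share of false calls than the threshold of 0.05 aims at. Replicates of 1 group differed beyond counting noise (mean chi-square per gene 4.27 to 9.85), so all were counted separately.

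Members, gene lists and tests were chosen with earlier results of these data known. The text names every member or related gene past the threshold, in each member group up to 3 of highest level and up to 4 of smallest p, the best known heat shock genes, and up to 3 of smallest p in each related list, with other genes added after their values were seen. Gene positions are those of the GENCODE M21 annotation and promoters those of RefSeq, and 30 members share exon bases with another gene, 5 of them over 20% of their exon bases. Beside the lists in the text, 6 satellite glia markers summed to 3999 to 4375 TPM in siNC and 4322 to 4786 TPM in siCLAP, and 6 macrophage markers to 24.3 to 40.6 and 25.9 to 50.9 TPM.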

Additional observations from a re-analysis of the deposited data

How the results depend on the processing

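Of 1140 comparisons of 60 named genes with 19 alternatives, 1084 kept direction and side of the threshold, 18 lost the call, 15 gained one and 23 turned sign. Of the members called lower (1) there were 5 with no filter, 2 with a mean of at least 0.1 TPM, 3 with DESeq2, 0 with limma on log2(TPM + 0.5), on log2(TPM + 0.1) and on log2(TPM + 1), 0 with limma voom, 0 to 3 with 1 library left out, and 0 without siNC-3 and siCLAP-2. Members called higher (0) numbered 1 with no filter and 1 with DESeq2. HSF1 targets called lower (1) numbered 3 with no filter, 0 with the same 4 limma fits, 0 to 2 with 1 library left out and 0 without siNC-3 and siCLAP-2, and related genes called lower (1) numbered 0 with the limma fits, 0 to 1 with 1 library left out and 0 without that pair. The summed Hspa1a and Hspa1b log2 fold change lost its call at −0.97, −0.98 and −0.95 in limma (pseudocounts 0.5, 0.1 and 1), at −0.90 in voom and at −0.77 without siNC-3 and siCLAP-2, and ran from −1.16 to −0.84 with 1 library left out. The causes were not tested.

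With the replicate block, 203 genes were called against 56 without it, with 3 members lower, 1 member higher (Hspb6) and 2 HSF1 targets lower. Deviations of same-numbered libraries correlated at 0.07, 0.01 and −0.04, and those of differently numbered libraries from −0.11 to 0.09. The labels do not say whether a number marks a shared litter, batch or day, and these correlations cannot decide it. Over all genes limma on log2(TPM) called 0, DESeq2 611, no filter 835, a mean of at least 0.1 TPM 135, and leaving out 1 library 0 to 336.

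Among genes not called, leaving out 1 library also moved several estimates by over 1.5 times, and not all are listed. Examples were Hspb11 (0.077 without siNC-1, 0.089 without siCLAP-1), Dnajb9 (0.053), Hsbp1l1 (0.13) and Hsf1 (−0.076), these 3 without siCLAP-2, and Pdia6 (−0.12 without siNC-3). Further ranges were −0.14 to −0.019 for Hspe1, −0.094 to −0.024 for Dnaja4 and −0.080 to −0.023 for Hspa12a. Hspb8 ran from 0.040 to 0.12, Bag4 from 0.0080 to 0.13 and Cct2 from 0.028 to 0.10. Estimates near 0 turned sign. With 1 library left out, Bag3 ran from −0.020 to 0.030, Dnaja1 from −0.040 to 0.026, Dnajc5 from −0.00090 to 0.042, Dnajc7 from −0.0019 to 0.048, Hspa1l from −0.12 to 0.17 and Hspa9 from −0.024 to 0.030. In limma Bag3 stood at −0.0021, Dnaja1 at −0.013 and Hspa9 at −0.0035. Dnaja1 stood at −0.0017 under upper quartile scaling and −0.00028 with no filter. Without siNC-3 and siCLAP-2, Bag4 stood at −0.041 and Hspa9 at −0.0078. The smallest simulated differences were often missed (36% recovered). Looser filters tested 77 (no filter), 76 (a mean of at least 0.1 TPM) and 72 members (filterByExpr), and no member below a mean of 1 TPM was called there.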
